A study of Rattus norvegicus with 12 samples.

Results

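Gene expression in the hypothalamus 3 h after acute corticosterone was compared with that 1 h after it, using 4 RNA sequencing libraries, 2 at each time, of 12 in the series. The libraries were chosen by their titles, and every gene that passed a filter on low counts entered the comparison, 12856 of 17310 genes in the files. Both groups came from wild-type male Wistar rats aged 12 weeks, and the tissue was the hypothalamic region that holds the paraventricular nucleus (PVH). The 3 h group and the 1 h group differ in their labels by time alone, as acute Cort (1) 3 h and acute Cort (1) 1 h. The dose, the route, the meaning of the bracketed 1, whether the adrenals had been removed, the clock time of collection and whether a replicate is an animal or a pool are details that the labels do not give. Levels in adrenalectomised rats with corticosterone supplement (supplemented ADX) and in sham-operated rats stand beside both times for context, with 2 libraries each and no test. The fit behind the p-values held these groups too, and 12-day high corticosterone (high Cort) and 7-day adrenalectomy (ADX), with 2 libraries each. The labels name no vehicle group, so a contrast of both times does not depend on the choice of a control.

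Corticosterone, the glucocorticoid that the rat adrenal chiefly secretes, binds the glucocorticoid receptor (Nr3c1) and, with higher affinity, the mineralocorticoid receptor (Nr3c2), which enter the nucleus and raise or lower transcription of their target genes. In the PVH it restrains the neurons that make corticotropin-releasing hormone (Crh) and vasopressin (Avp), the peptides that drive the pituitary to stimulate the adrenal. Immediate-early genes, such as Fos and Egr1, encode transcription factors whose messenger RNA appears and decays quickly after neurons are stimulated.

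The libraries held 20684695 and 22003888 fragments at 3 h and 32201860 and 17674159 fragments at 1 h. The smallest library of the whole series was thus 1 h replicate 2. That library also stood apart in a list of thalamus markers, a region next to the dissected tissue. Their summed level was 1290 and 1200 CPM (counts scaled to library size by TMM) at 3 h and 1290 and 839.8 CPM at 1 h. In the context groups it was higher, at 1501 and 1561 CPM in supplemented ADX and 1820 and 2355 CPM in sham. The PVH list, with the transcription factors Otp and Sim1 that mark its neurons, summed to 1278 and 1238 CPM at 3 h and to 1223 and 1329 CPM at 1 h, against 1135 and 1121 CPM in supplemented ADX and 1047 and 983.5 CPM in sham. Both marker lists thus moved with these groups, and their part in the levels set beside the acute groups was not tested. Otp stood at 38.7 and 40.9 CPM at 3 h and at 37.4 and 41.0 CPM at 1 h, so the defining markers were present in all 4 libraries. With 2 libraries a group, p-values rest on a spread pooled over genes and groups, and that spread may be technical in part. An exact permutation of 2 against 2 libraries cannot go below p = 0.333.

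Few genes separated the times. At an adjusted p under 0.05 (edgeR quasi-likelihood test, Benjamini-Hochberg over 12856 genes, all 12 libraries in the fit), 3 genes were called, or 0.0233% of those tested. Of these, 2 were lower at 3 h (0.0156% of genes), among them Per1, and 1, Hbb, was higher (0.00778%). At an unadjusted p under 0.05, 633 genes (4.92%) were higher and 733 (5.7%) lower, 1366 in all. The median log2 fold change over all genes was 0.0014, and 50.4% of genes had a log2 fold change above 0. Both libraries at 3 h stood above both at 1 h in 19.5% of genes, and below both in 19.4%. By order alone, 33.3% of genes would separate in either direction. Counts of list genes without overlap, given below, are to be read beside these shares. Unless another analysis is named, a gene is said to be called only where it passed in this edgeR fit of 12 libraries.

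Per1 encodes a repressor in the circadian clock and is also a known target of the glucocorticoid receptor. Its level was 49.8 and 51.9 CPM at 3 h, against 82.5 and 87.4 CPM at 1 h. The groups did not overlap, and each pair of libraries lay close together. Per1 fell 1.67-fold at 3 h (log2 fold change -0.74 ± 0.08 SE, adjusted p = 0.00309). It stood at 48.7 and 50.5 CPM in supplemented ADX and at 40.2 and 48.7 CPM in sham, so the 3 h level was near both and the 1 h level above both. The call held in 13 of 15 alternative analyses. The adjusted p ranged between 4.86e-12 and 0.0771 over them (edgeR, DESeq2 or limma). The call was lost without 3 h replicate 1 (adjusted p = 0.0508) and without 3 h replicate 2 (adjusted p = 0.0771). In whole tissue, fewer cells of a type and less RNA per cell cannot be told apart, here and in all results that follow.

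Among the 50 genes of smallest p, 4 differed by 2-fold or more, and 3 of these, Nr4a3, Egr1 and Nr4a1, are early genes. They and Fos stood more than 2-fold lower at 3 h, but none of them was called in the fit of 12 libraries, with adjusted p between 0.0657 and 0.233. They were called when only the 4 acute libraries were fitted (9 of 12460 genes called, 0.0722%) and when the 6 libraries of the authors' same Cuffdiff run were fitted (10 of 12697, 0.0788%). Over the 15 alternatives the adjusted p ranged between 5.9e-05 and 0.71 for Fos, 5.9e-05 and 0.688 for Egr1, 1.13e-09 and 0.688 for Nr4a3, and 2.49e-06 and 0.645 for Nr4a1 (edgeR, DESeq2 or limma). Whether they were called thus changed with the libraries that entered the fit. It also changed with the method, since DESeq2 called each of them in the 12 libraries. The cause of this was not tested.

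Fos, which pairs with Jun proteins to form the AP-1 transcription factor, stood at 7.86 and 7.66 CPM at 3 h, against 21.6 and 24.9 CPM at 1 h. The log2 fold change was -1.57 ± 0.36 SE, with adjusted p = 0.233 in 12 libraries and 0.000109 in the 4 acute ones (edgeR). The acute libraries were tight, while the 7-day ADX libraries, which enter the wider fit, lay at 12.3 and 5.35 CPM. Supplemented ADX had 10.6 and 12.4 CPM and sham 9.38 and 7.98 CPM, all above the 3 h values and below the 1 h values.

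Egr1, a zinc-finger factor induced by growth factors and synaptic activity, stood at 16.5 and 17.1 CPM at 3 h, against 39.4 and 45.6 CPM at 1 h. The log2 fold change was -1.33 ± 0.23 SE, with adjusted p = 0.174 in 12 libraries and 0.000109 in the 4 acute ones (edgeR). The sham libraries, at 22.4 and 13.8 CPM, spread more widely than either acute pair. Supplemented ADX had 22.9 and 20.2 CPM, above 3 h and below 1 h.

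The promoter of Egr1 is shown since it carries a known signature of early genes, the CArG box bound by serum response factor, beside a difference of more than 2-fold between the times. Per1 is shown as the called gene with the smallest p. Each is the RefSeq window of 250 bases before to 50 after the gene start on the GRCr8 assembly, on the plus strand, at chr18:26736828-26737127 for Egr1 and chr10:54304126-54304425 for Per1. Capitals mark CArG boxes.
Egr1: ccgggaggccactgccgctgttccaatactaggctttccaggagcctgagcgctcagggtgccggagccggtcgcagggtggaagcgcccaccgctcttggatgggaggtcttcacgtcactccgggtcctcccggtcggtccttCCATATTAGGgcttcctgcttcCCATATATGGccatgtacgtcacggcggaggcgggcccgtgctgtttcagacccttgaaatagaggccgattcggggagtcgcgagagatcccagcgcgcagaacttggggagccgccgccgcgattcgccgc
Per1: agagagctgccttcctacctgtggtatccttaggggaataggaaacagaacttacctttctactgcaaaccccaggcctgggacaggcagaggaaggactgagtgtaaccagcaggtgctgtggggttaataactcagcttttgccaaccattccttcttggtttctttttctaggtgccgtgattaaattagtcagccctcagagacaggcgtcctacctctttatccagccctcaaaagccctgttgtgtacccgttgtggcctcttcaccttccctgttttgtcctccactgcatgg
The Egr1 window holds 2 CArG boxes, whose first bases lie 105 and 83 bases before the start, while 1.17% of the 9301 tested genes with a promoter in the table hold at least 1 (exact 95% binomial interval 0.963% to 1.41%, for counting error only). Also searched on both strands were ACANNNTGT, part of the glucocorticoid response element (in 3.95% of promoters), the 15-base palindromic form of that element (in 0 of 9301), the cAMP element TGACGTCA (3.14%), the AP-1 site TGANTCA (5.0%), the E-box CACGTG (9.07%) and the Egr site GCGTGGGCG (1.02%). The shorter form lies within the 15-base form, so those searches overlap. The Per1 window holds no match to any of these letters, and a match or its absence is only a description of these windows.

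The Nr4a genes encode orphan nuclear receptors, and they did not move together. Nr4a3 stood at 9.21 and 9.08 CPM at 3 h, against 23.2 and 26.0 CPM at 1 h (log2 fold change -1.42 ± 0.21 SE, edgeR adjusted p = 0.103 in 12 libraries and 0.000109 in 4). Its 3 h values were near those of supplemented ADX, 9.11 and 9.98 CPM, and the sham libraries had 5.88 and 8.93 CPM. Nr4a1 stood at 8.63 and 9.35 CPM at 3 h, against 18.2 and 20.0 CPM at 1 h (log2 fold change -1.08 ± 0.16 SE, edgeR adjusted p = 0.0657 in 12 libraries and 0.00154 in 4). Here supplemented ADX, at 13.4 and 13.0 CPM, lay between the times, and sham, at 10.4 and 9.33 CPM, near 3 h. Nr4a2 had 8.05 and 7.03 CPM at 3 h and 7.50 and 7.82 CPM at 1 h, with overlapping groups and adjusted p = 0.985 (edgeR).

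Apart from Egr2, other members of the same families differed by less. Junb, a partner of Fos, stood at 7.76 and 7.92 CPM at 3 h, against 13.5 CPM in both 1 h libraries (log2 fold change -0.78 ± 0.13 SE, edgeR adjusted p = 0.0657 in 12 libraries and called in 6 of 15 alternatives). The 3 h level of Junb lay just under that of supplemented ADX, 8.48 and 8.20 CPM, and of sham, 8.98 and 8.53 CPM. Jun itself had a log2 fold change of -0.17 ± 0.06 SE, and Fosb, at 2.94 and 4.10 CPM at 3 h and 4.17 and 5.93 CPM at 1 h, one of -0.48 ± 0.31 SE. Egr2 was rare and irregular, with 0.193 and 0.445 CPM at 3 h and 0.463 and 2.66 CPM at 1 h. Its log2 fold change was -2.03 ± 0.94 SE, and lay between -3.02 and -0.51 with 1 library left out. Egr3 had a log2 fold change of 0.20 ± 0.23 SE. None of these 4 was called (edgeR adjusted p between 0.353 and 0.814).

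**Figure D1:**
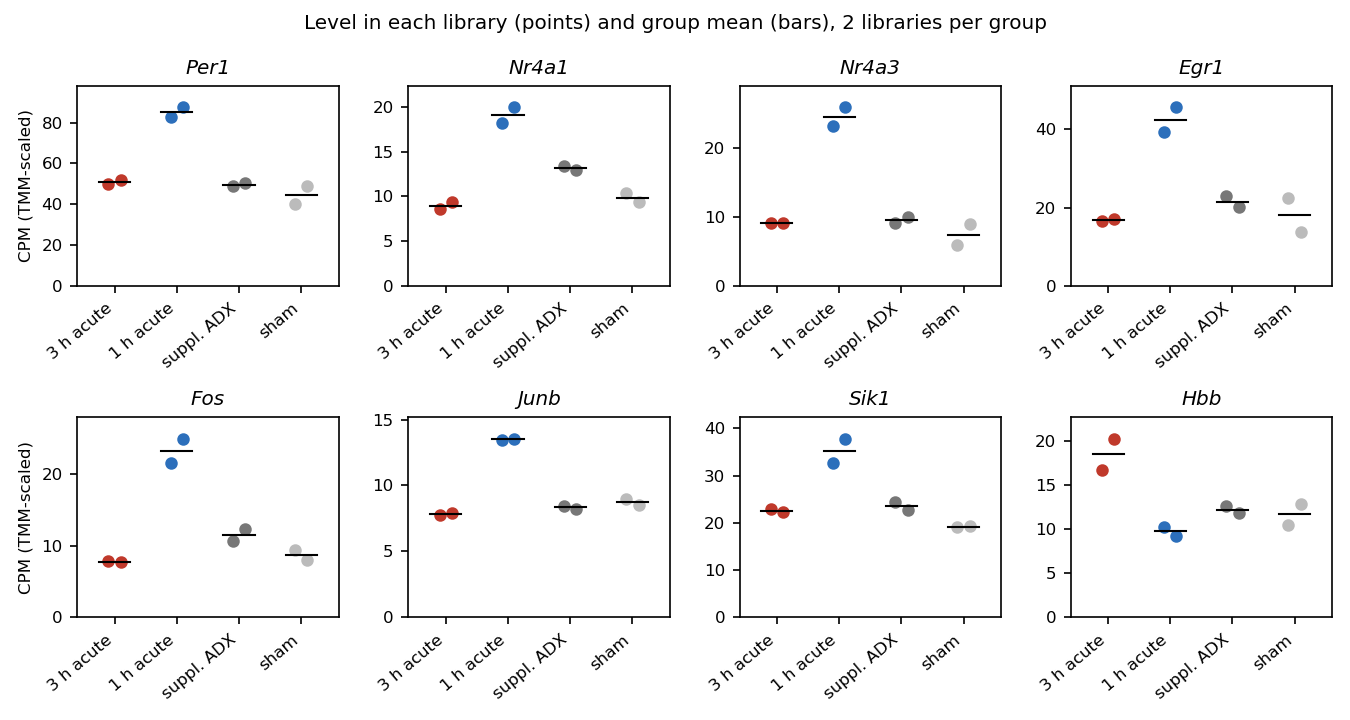
Level of 8 genes in CPM (vertical axis from 0, one panel per gene) in each library of the 3 h, 1 h, supplemented ADX and sham groups. Points are libraries and bars are group means. For Per1, Nr4a1, Nr4a3, Egr1, Fos, Junb and Sik1 both 1 h points lie above all other points drawn, and for Hbb both 3 h points do.

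Over the whole lists, summed levels were lower in both 3 h libraries than in both 1 h libraries. The sums include the genes described above, so they are not a separate result. The AP-1 list summed to 222.5 and 226.9 CPM at 3 h and to 248.1 and 264.5 CPM at 1 h, and the list of Egr, Nr4a and other early genes to 638.1 and 659.9 CPM at 3 h and to 717.8 and 703.3 CPM at 1 h. Of 13 AP-1 genes, 10 were tested and none called by edgeR in 12 libraries, where DESeq2 called Fos and Junb, with a median log2 fold change of -0.16 against 0.0014 over all genes, and 5 stood lower and 2 higher at 3 h without overlap. Of 42 Egr, Nr4a and other early genes, 41 were tested and none called by edgeR in 12 libraries, where DESeq2 called Egr1, Nr4a1 and Nr4a3, with a median of -0.03, and 12 stood lower and 8 higher without overlap. At an unadjusted p under 0.05 the AP-1 list had 3 genes lower and none higher, and the other early genes 7 lower and 3 higher. On the second of these lists, Mcl1, a survival factor of the Bcl2 family, had a log2 fold change of -0.24 ± 0.07 SE, while Id2, an inhibitor of basic helix-loop-helix factors, stood at 16.9 and 17.2 CPM at 3 h, against 14.1 and 13.6 CPM at 1 h. Both had an adjusted p of 0.199 (edgeR).

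Feedback genes of the MAPK and cAMP pathways gave 25 tested members and no call by edgeR in 12 libraries, where DESeq2 called Sik1 and Pde10a, with 10 lower and 3 higher without overlap and a median of -0.04. Sik1, a kinase that cAMP induces and that restrains CREB coactivators, stood at 22.8 and 22.2 CPM at 3 h, against 32.7 and 37.8 CPM at 1 h (log2 fold change -0.64 ± 0.12 SE, edgeR adjusted p = 0.114 in 12 libraries, called in 4 of 15 alternatives). Its 3 h level was near supplemented ADX, 24.5 and 22.8 CPM, and above sham, 19.1 and 19.3 CPM. Spry4, an inhibitor of receptor tyrosine kinase signalling, stood at 23.7 and 24.6 CPM at 3 h, against 31.2 and 30.7 CPM at 1 h (adjusted p = 0.159, edgeR). Dusp1 is a MAPK phosphatase that glucocorticoids induce in many cells. It stood at 14.5 and 15.2 CPM at 3 h, against 23.4 and 15.5 CPM at 1 h. For Dusp1 supplemented ADX had 18.68 and 24.37 CPM and sham 23.22 and 24.99 CPM. Thus 1 h replicate 1 lay within the range of these context groups. Both 3 h libraries and 1 h replicate 2 lay below that range. Pde10a is a phosphodiesterase that breaks down cAMP and cGMP. It was higher at 3 h, at 84.9 and 78.0 CPM, against 66.6 and 59.9 CPM at 1 h. Its log2 fold change was 0.36 ± 0.06 SE (edgeR adjusted p = 0.065 in 12 libraries, called in 5 of 15 alternatives). For Pde10a supplemented ADX had 78.5 and 78.4 CPM and sham 91.3 and 89.0 CPM, so the 1 h libraries were the low ones.

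**Figure D2:**
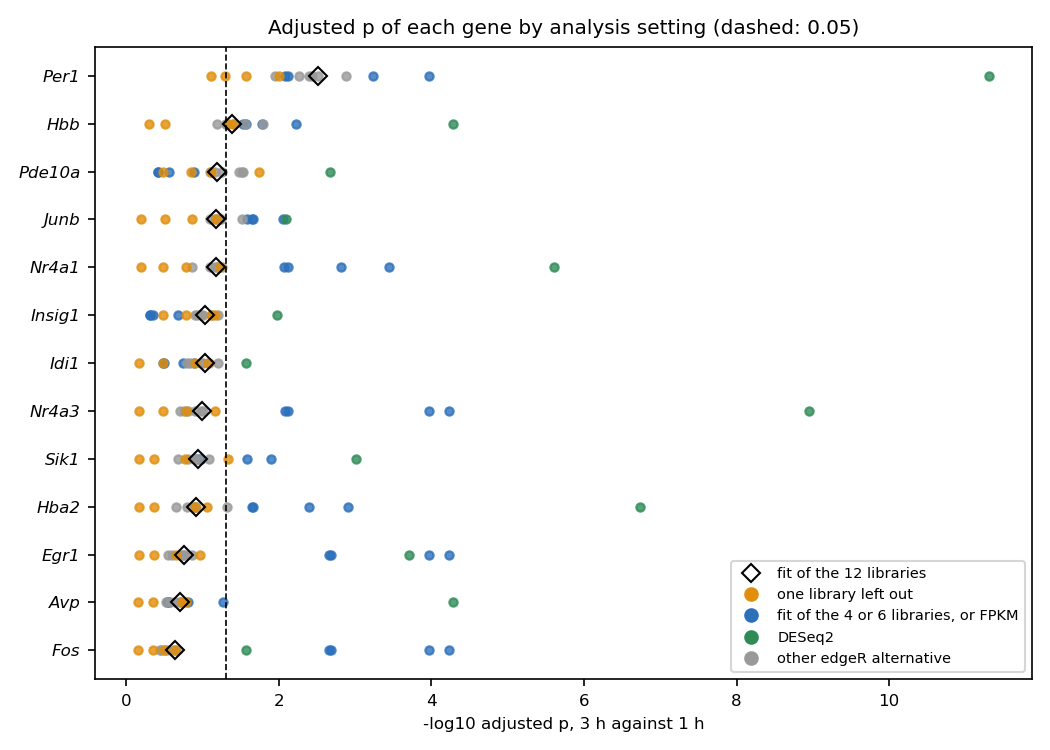
Adjusted p of 13 genes for 3 h against 1 h, on a -log10 axis with the threshold of 0.05 dashed. Each row is a gene, the diamond is the fit of 12 libraries and the coloured points are the alternative analyses. Per1 lies right of the line in 13 of 15 alternatives, whereas Egr1, Nr4a3, Nr4a1 and Fos cross it in 5 each, which are the fits of 4 or 6 libraries, FPKM and DESeq2.

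Clock genes other than Per1 showed small differences, and none of them was called. Of 25 listed, 20 were tested, Per1 was called, and 7 stood lower and 2 higher at 3 h without overlap, with a list median of -0.02. Per2, the paralogue of Per1, stood at 82.7 and 78.4 CPM at 3 h, against 91.0 and 95.6 CPM at 1 h (log2 fold change -0.21 ± 0.05 SE, adjusted p = 0.178, edgeR). Both times lay above supplemented ADX, 71.4 and 68.8 CPM, and sham, 54.8 and 54.4 CPM. Per3 had 87.2 and 87.3 CPM at 3 h and 95.2 and 104.7 CPM at 1 h, with adjusted p = 0.219 (edgeR). Nfil3, a repressor in the clock's second loop, had 7.42 and 8.24 CPM at 3 h and 9.91 and 10.5 CPM at 1 h, with adjusted p = 0.244 (edgeR). The activators of the clock differed less, with log2 fold changes of 0.02 ± 0.06 SE for Arntl and -0.09 ± 0.04 SE for Clock. Time after corticosterone and the time of day at collection cannot be told apart here.

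Genes known to be induced by glucocorticoids did not differ in a common direction. Of 57 listed, 53 were tested, and Per1 was the single call. Of these 53, 24 had a log2 fold change above 0 (45.3%, against 50.4% of all genes), and the median was -0.01. Without overlap, 14 stood higher and 18 lower at 3 h, against 19.5% and 19.4% of all genes. Fkbp5, a co-chaperone that dampens the glucocorticoid receptor, stood at 31.2 and 32.1 CPM at 3 h, against 27.7 and 25.7 CPM at 1 h (log2 fold change 0.24 ± 0.09 SE, adjusted p = 0.359, edgeR). Supplemented ADX, at 29.4 and 29.2 CPM, and sham, at 28.8 and 27.9 CPM, lay between. Tsc22d3, which encodes the leucine zipper protein GILZ, had 57.8 and 59.2 CPM at 3 h and 61.4 and 65.5 CPM at 1 h, with adjusted p = 0.671 (edgeR). Sgk1, a kinase that both corticosteroid receptors induce, had 29.4 and 29.7 CPM at 3 h and 31.7 and 32.5 CPM at 1 h, with adjusted p = 0.796 (edgeR). Thus Fkbp5 was the higher and the other 2 the lower at 3 h, without overlap in any of them and without a call.

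Further members of that list showed each kind of pattern. Zbtb16, a zinc-finger repressor, stood at 21.5 and 21.3 CPM at 3 h and at 16.2 and 19.2 CPM at 1 h, and at 14.9 and 12.9 CPM in supplemented ADX and 14.5 and 11.7 CPM in sham. Its levels were thus ordered with 3 h highest, but with adjusted p = 0.608 (edgeR) 3 h and 1 h did not differ beyond the fitted spread. Ddit4, an inhibitor of the TOR kinase pathway, had 37.5 and 38.6 CPM at 3 h and 42.8 and 54.4 CPM at 1 h (adjusted p = 0.353, edgeR). Mfsd2a, a lipid transporter of brain endothelium, had a log2 fold change of 0.30 ± 0.10 SE, and Klf9, a zinc-finger factor, one of -0.05 ± 0.04 SE. Another list held metabolic stress genes of the Foxo and TOR pathways. Of its 22 tested members none was called, and 18 had a log2 fold change below 0. Without overlap 9 stood lower and none higher, and the median was -0.07.

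Cells control cholesterol synthesis through SREBP factors, which switch on its genes together when membrane sterol is low. All 23 cholesterol genes reported here were tested, none was called by edgeR in 12 libraries (DESeq2 called Idi1 and Insig1), and 18 had a log2 fold change below 0, 6 of them at an unadjusted p under 0.05. Of the 23, 12 stood lower at 3 h without overlap and 1 higher, and the median was -0.08. After a trend with gene length was removed, an alternative added after seeing the data, the median was -0.07. Idi1, which makes the isoprenoid building block, stood at 39.3 and 37.5 CPM at 3 h, against 49.8 and 49.0 CPM at 1 h (log2 fold change -0.37 ± 0.07 SE, adjusted p = 0.0918, edgeR). Insig1, which holds SREBP in the endoplasmic reticulum, stood at 145.4 and 159.0 CPM at 3 h, against 182.2 and 182.6 CPM at 1 h (log2 fold change -0.26 ± 0.05 SE, adjusted p = 0.0918, edgeR). For both genes supplemented ADX and sham were close to 1 h. Idi1 had 49.1 and 53.9 CPM in supplemented ADX and 52.1 and 47.0 CPM in sham, and Insig1 had 183.1 and 185.1 CPM in supplemented ADX and 188.8 and 186.9 CPM in sham.

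Sqle, which makes the sterol precursor squalene epoxide, had a log2 fold change of -0.16 ± 0.05 SE, Stard4, a cholesterol carrier, -0.17 ± 0.06 SE, and Dhcr7, a late enzyme, -0.19 ± 0.07 SE. Hmgcs1, an early enzyme of the pathway, and Srebf2, the SREBP factor itself, were nearer to 0, at -0.09 ± 0.05 SE and -0.08 ± 0.05 SE. None of these 5 was called in the fit of 12 libraries.

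**Figure D3:**
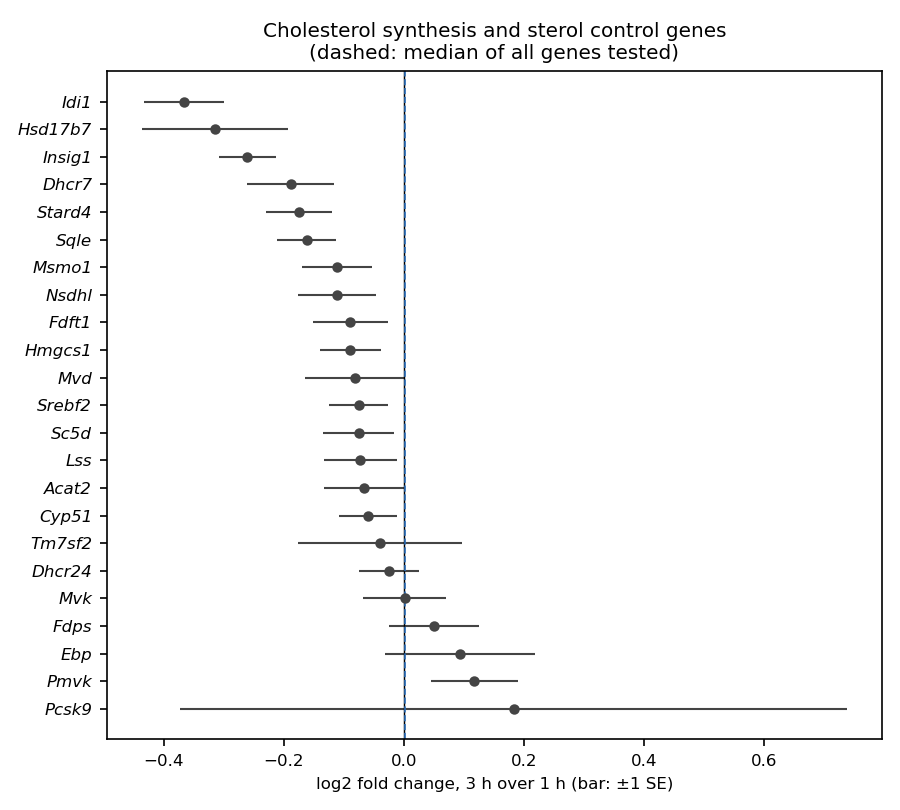
Log2 fold change of each of 23 cholesterol genes at 3 h over 1 h (horizontal axis, bars ± 1 SE), sorted by value. The dashed line is the median of all genes tested, and 18 of the 23 points lie left of 0.

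No neuropeptide gene was called by edgeR in 12 libraries, and 10 of 27 tested stood higher at 3 h without overlap (19.5% of all genes did). Crh had 20.8 and 23.8 CPM at 3 h and 18.6 and 15.2 CPM at 1 h (log2 fold change 0.38 ± 0.20 SE, adjusted p = 0.55, edgeR). Supplemented ADX had 14.3 and 18.9 CPM and sham 10.5 and 13.5 CPM, so the 3 h libraries were the highest of these 8, of which those of supplemented ADX and sham also had less of the PVH list and more of the thalamus list. Avp had 170.0 and 201.3 CPM at 3 h and 134.5 and 123.7 CPM at 1 h (log2 fold change 0.52 ± 0.12 SE, adjusted p = 0.195, edgeR). Supplemented ADX had 148.9 and 141.8 CPM of Avp and sham 95.2 and 103.1 CPM, and neither group overlapped either acute group. DESeq2 called Avp (adjusted p = 5.26e-05), and no other alternative did, with a range up to 0.71.

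Trh, the releasing hormone for thyrotropin, had 95.6 and 124.3 CPM at 3 h and 75.8 and 88.3 CPM at 1 h, and was called by DESeq2 alone (adjusted p = 0.0272, against 0.316 with edgeR). Oxt, which encodes oxytocin, had 325.9 and 415.1 CPM at 3 h and 312.6 and 276.5 CPM at 1 h (adjusted p = 0.701, edgeR). Vgf, a peptide precursor of secretory granules, had 285.9 and 310.1 CPM at 3 h and 273.5 and 233.6 CPM at 1 h (adjusted p = 0.199, edgeR). In each of these 3 genes both 3 h libraries lay above both 1 h libraries. Of 37 listed peptide genes, 27 were tested and none called, 22 had a log2 fold change above 0 (19 with the length trend removed), and 1 stood lower at 3 h without overlap. The list's median was 0.08 and its transcripts were short, with a median effective length of 0.636 kb, a property that moved with the contrast, as given further on.

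The receptors for the hormone and for Crh differed little. Nr3c1 had 194.4 and 186.0 CPM at 3 h and 207.5 and 189.7 CPM at 1 h (log2 fold change -0.06 ± 0.06 SE), with overlapping groups. Nr3c2 had 44.1 and 42.2 CPM at 3 h and 46.1 and 48.7 CPM at 1 h (log2 fold change -0.13 ± 0.06 SE), and Crhr1, the main Crh receptor, a log2 fold change of 0.07 ± 0.09 SE. Their adjusted p lay between 0.472 and 0.819 (edgeR). Of 18 tested genes for steroid receptors and local steroid activation, none was called, and 1 stood higher and 2 lower without overlap, with a median of -0.01.

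Hbb, the beta chain of hemoglobin, was the gene called higher. It stood at 16.8 and 20.3 CPM at 3 h, against 10.3 and 9.26 CPM at 1 h, and rose 1.89-fold (log2 fold change 0.91 ± 0.14 SE, adjusted p = 0.0413, edgeR). Supplemented ADX had 12.6 and 11.8 CPM and sham 10.5 and 12.9 CPM, below both 3 h libraries. Over the 15 alternatives the adjusted p ranged between 5.26e-05 and 0.497 (edgeR, DESeq2 or limma). The call was lost, among others, without 1 h replicate 2 (adjusted p = 0.309, edgeR) and without 3 h replicate 2 (0.497). Hba2, an alpha chain, had 32.2 and 38.3 CPM at 3 h and 18.5 and 15.9 CPM at 1 h (log2 fold change 1.02 ± 0.17 SE, edgeR adjusted p = 0.121 in 12 libraries, called in 6 of 15 alternatives). Of 11 listed red cell genes 6 passed the filter, all 6 had a log2 fold change above 0, and 5 stood higher without overlap. The list summed to 56.1 and 69.2 CPM at 3 h and to 34.7 and 28.6 CPM at 1 h. It summed to 40.8 and 34.7 CPM in supplemented ADX and to 37.1 and 42.9 CPM in sham. Hba1, among those 5, had 4.34 and 6.50 CPM at 3 h, below sham at 7.22 and 13.1 CPM. For Hba1 supplemented ADX, at 5.75 and 2.69 CPM, overlapped 3 h. Alas2, the first enzyme of heme synthesis in red cells, had 1.11 and 1.78 CPM at 3 h and 1.14 and 0.832 CPM at 1 h, with overlapping groups. Globin genes have near-identical copies, so how reads were split among them is uncertain, and the blood held in the tissue and its part in the result were not tested.

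Markers of other cell types gave no call by edgeR in 12 libraries, while DESeq2 called Gfap (adjusted p = 0.0322). Endothelial and mural genes had a median of 0.05, with 11 of 35 higher and 3 lower without overlap, and Eng, an endothelial receptor of the TGF-beta family, had 50.9 and 49.6 CPM at 3 h and 44.1 and 41.8 CPM at 1 h (adjusted p = 0.191, edgeR). Gfap, an astrocyte filament protein, had 430.5 and 492.1 CPM at 3 h and 384.8 and 371.3 CPM at 1 h (adjusted p = 0.195, edgeR), while the 19 astrocyte genes had a median of 0.01. Neuron genes had a median of 0.06 (7 of 21 higher and 1 lower without overlap), microglia genes 0.03 and oligodendrocyte genes 0.01. Over all genes, 19.5% stood higher and 19.4% lower without overlap. Choroid plexus and ependyma genes had a median of -0.09, and meninges genes one of -0.11, with 5 of 17 lower and none higher without overlap. Thalamus genes had a median of 0.20, with 18 of 19 above 0 but only 2 higher without overlap. Fitting the mean log2 level of these genes beside the groups gave a median of 0.05. That score is made from the same genes, so a smaller median was built in and decides nothing about the dissection. The thalamic kinase Prkcd shows the split within the 1 h group, with 118.1 and 93.7 CPM at 3 h and 120.6 and 41.0 CPM at 1 h.

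**Figure D4:**
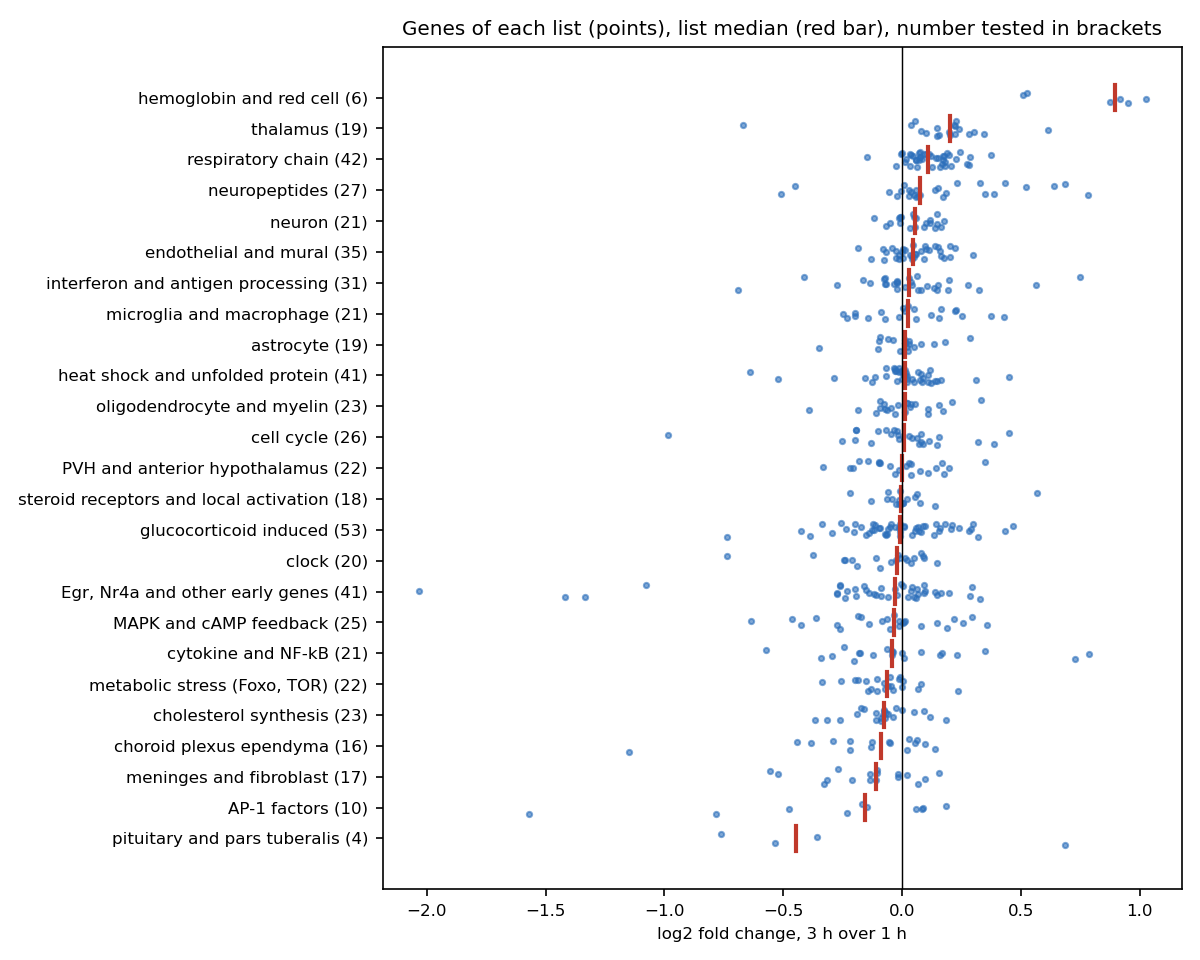
Log2 fold change at 3 h over 1 h (horizontal axis) of the tested genes of each of 25 lists (rows, number tested in brackets), with each gene a point and the list median a red bar. The medians lie between -0.16 and 0.20 but for the hemoglobin list, at 0.89, and the pituitary list of 4 tested genes, at -0.44.

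Respiratory chain genes, which encode subunits of the mitochondrial complexes that make ATP, stood slightly higher at 3 h than at 1 h. Their mean log2 CPM was 5.882 and 5.923 at 3 h and 5.806 and 5.762 at 1 h. It was 5.867 and 5.928 in supplemented ADX and 5.901 and 5.903 in sham, so the 1 h libraries were the low ones. All 42 listed were tested and none was called, 39 had a log2 fold change above 0, 29 stood higher and none lower without overlap, and the median was 0.11. Cox6c, a subunit of cytochrome c oxidase, had 42.8 and 45.0 CPM at 3 h and 37.2 and 35.3 CPM at 1 h (log2 fold change 0.27 ± 0.06 SE, adjusted p = 0.174, edgeR). Ndufa8, a subunit of complex I, had 27.5 and 27.2 CPM at 3 h and 22.9 and 23.3 CPM at 1 h (adjusted p = 0.195, edgeR). These transcripts are short, with a median effective length of 0.681 kb.

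Gene length moved with the contrast over all genes. Among 11277 genes whose mean log2 CPM was 1 or more, the shortest quintile, of median effective length 0.868 kb, had a median log2 fold change of 0.07, with 70.6% of genes above 0. The longest quintile, of 4.64 kb, had a median of -0.04, with 30.8% above 0. Replicates of a group also differed along length, by a median of -0.05 (replicate 1 minus replicate 2, log2) in the shortest quintile and 0.04 in the longest at 3 h, and by 0.0008 and 0.0079 at 1 h. With the trend removed, the respiratory list had a median of 0.05 with 32 of 42 genes above 0, against a median of 0.0089 over all genes. Per1 and Hbb had log2 fold changes of -0.71 and 0.82 in that fit.

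**Figure D5:**
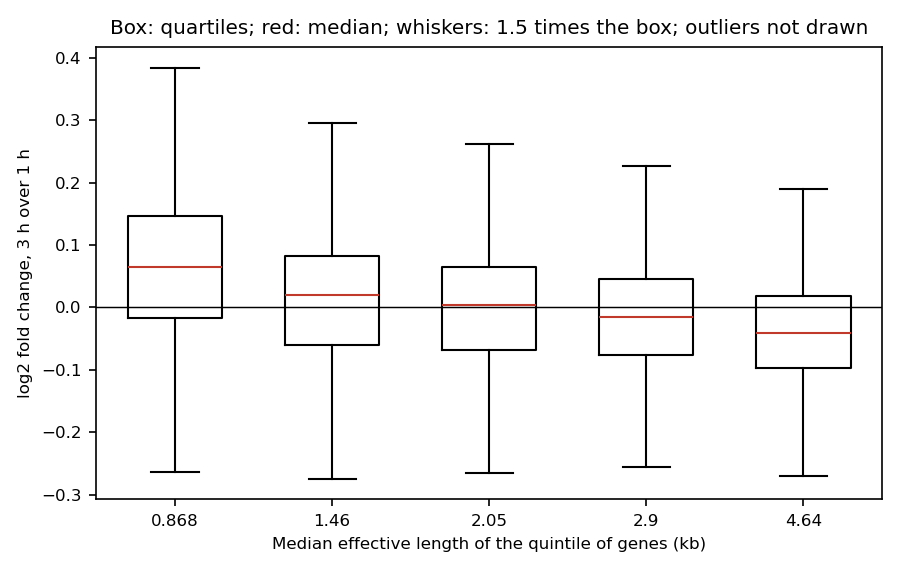
Log2 fold change at 3 h over 1 h (vertical axis) in quintiles of 11277 genes by effective length (horizontal axis, median length in kb). Boxes show quartiles, red lines medians and whiskers 1.5 times the box; the median is 0.07 in the shortest quintile and -0.04 in the longest.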

How the data were processed

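Total RNA from dissected hypothalamic tissue was sequenced in duplicate per group. Per the submitters' processing notes, the authors used CASAVA 1.8.2, TopHat2 2.1.1 and Cufflinks 2.2.1 with the rat build rn6. The gene annotation is not given in the sources used here. Per the file headers, each deposited table holds Cuffdiff's raw fragments, which are expected counts, and the deposited FPKM were scaled by the authors within each of 2 Cuffdiff runs. One run held supplemented ADX, 1 h and 3 h, and the other sham, high Cort and ADX.

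Expected counts were rounded to whole numbers (0.751% of values, in 233 genes, were not whole). In 4 cells the status was FAIL and the counts were kept. Genes were kept by filterByExpr (minimum count 10, minimum total 15). edgeR 4.0.16 in R 4.3.3 fitted 12 libraries in 6 groups with TMM and robust quasi-likelihood (6 residual degrees of freedom, common biological coefficient of variation 0.047), tested 3 h minus 1 h, and adjusted p by Benjamini-Hochberg. Effective length was derived from deposited fragments and FPKM. The edgeR fit of 12 libraries was tested on simulated data, and the alternative analyses were not.

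The genes described are 12 fixed ones, called genes, up to 4 of smallest p per list, and genes named after their values were seen, as part of the pathways described. The members and lists were chosen with earlier results of these data known. Replicate numbers were not used as pairs. Alternatives were RLE factors, no filter or a stricter one (4 libraries with 1 CPM or more), DESeq2 1.42.0, fits of 4 or 6 libraries, a replicate block, limma 3.58.1 on log2(FPKM + 1) or log2(FPKM + 0.1), a thalamus covariate and leaving out each library. The removal of the length trend was added after seeing the data. Promoter windows came from RefSeq (GRCr8) and matched 10 of 14 genes sought. Some genes, and their members in the lists, are not reported here.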

Additional observations from a re-analysis of the deposited data

How the results depend on the processing

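Of 1222 log2 fold changes recomputed for 83 genes under 15 alternatives, 1156 kept their direction and their side of the threshold. Most of these genes were not called in the main fit, and staying uncalled counted as kept. Of the other values, 51 gained a call, 5 lost it and 10 changed sign. Against 3 calls (1 higher, 2 lower, 2 in the lists), there were 5 with no filter on low counts (2 higher, 4 in the lists), 24 with DESeq2 (7 higher, 17 lower, 15 in the lists), which called 0.237% of 10114 genes, and 9 with the 4 acute libraries alone (2 higher, 7 lower, 9 in the lists). There were 10 with the 6 libraries of the same run (2 higher, 8 lower, 9 in the lists), and limma-trend on FPKM called 9 with a pseudocount of 1 (2 higher, 7 lower, 8 in the lists) and 10 with 0.1 (2 higher, 8 lower, 8 in the lists). The replicate block gave 2 higher calls and so did removal of the length trend. Leaving out 1 library gave 0 to 35 calls, 0 to 21 of them higher, 0 to 14 lower and 0 to 7 in the lists. There were none without 3 h replicate 2 (896 at an unadjusted p under 0.05), 5 without 3 h replicate 1, 35 without 1 h replicate 1 and 3 without 1 h replicate 2. The cause of these changes was not tested.

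Some values changed sign. The log2 fold change of Nr4a2 was 0.0011 with the replicate block, 0.070 with the thalamus covariate and between -0.12 and 0.088 with 1 library left out. That of Arntl was -0.0083 with the thalamus covariate and between -0.048 and 0.12 with 1 library left out. With 1 library left out, Nr3c1 lay between -0.12 and 0.0036, Prkcd between -0.19 and 1.37 and Otp between -0.043 and 0.095. Same-numbered libraries of 3 h and 1 h had deviations with a correlation of 0.113 over 10192 genes, and nothing ties the numbers to an animal. With the replicate block Hbb was not called (adjusted p = 0.0651), while Hba2 (0.0481) and Pde10a (0.0299) were (edgeR). The lone library in a left-out fit is assumed to vary like the other groups. Depth was lowest in 1 h replicate 2, at 17674159 fragments.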

Other observations

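Among the 50 genes of smallest p, 39 were lower and 11 higher at 3 h, and 4 differed by 2-fold or more, which were Nr4a1, Nr4a3, Egr1 and Hba2. Several genes outside the early, clock and sterol lists were close to the threshold, and they are named after their values were seen. Pik3c2a, a lipid kinase of endocytosis, had 82.9 and 82.5 CPM at 3 h and 97.3 and 100.9 CPM at 1 h (log2 fold change -0.26 ± 0.05 SE, adjusted p = 0.0918, edgeR). Abcc1, an export transporter, had 130.6 and 134.1 CPM at 3 h and 166.2 and 162.6 CPM at 1 h (log2 fold change -0.31 ± 0.06 SE, adjusted p = 0.109, edgeR). Ipmk, an inositol phosphate kinase, had 48.8 and 51.7 CPM at 3 h and 62.4 and 63.8 CPM at 1 h (adjusted p = 0.102, edgeR). DESeq2 called these 3 genes.

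Lifr, the receptor subunit for leukemia inhibitory factor, had a log2 fold change of -0.25 ± 0.05 SE (adjusted p = 0.148, edgeR), and Sesn3, a stress-induced regulator of the TOR pathway, one of -0.19 ± 0.04 SE (adjusted p = 0.174, edgeR). Of 41 tested heat shock and unfolded protein genes none was called, 13 stood higher and 5 lower at 3 h without overlap, and the median was 0.01. Dnajb1, a heat shock co-chaperone, had 53.2 and 50.8 CPM at 3 h and 60.0 and 67.5 CPM at 1 h (adjusted p = 0.31, edgeR). Interferon genes (31 tested), cytokine and NF-kB genes (21 tested) and cell cycle genes (26 tested) had medians of 0.03, -0.04 and 0.01, with no call.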
